A study of Mus musculus with 9 samples.

Results

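The genes of urokinase (Plau), tissue plasminogen activator (Plat), the urokinase receptor (Plaur) and the protease inhibitor Serpine2 were followed in the RNA-seq data of murine bone marrow-derived mast cells (BMMC). They were taken as the rows of the raw count matrix whose Ensembl identifiers carry these symbols, which gave 4 of 47643 genes. They were selected on their names with their levels and fold changes in all 3 groups already known, so the values of these genes are descriptions. The cells were grown from the marrow of C57BL/6 mice in medium conditioned by WEHI-3 cells, a mouse myelomonocytic line that secretes interleukin-3. Poly(A) RNA of 9 libraries was sequenced, 3 in each of 3 groups. Control cells were untreated in the study's description (the labels read only Control). IgE+BSA cells had been loaded with IgE and activated through the high-affinity IgE receptor by the hapten DNP carried on BSA, as the study describes. IgE+BSA+Luteolin cells also received luteolin, a plant flavone. The study describes these cells both as pretreated with luteolin and as given it after the antigen, so the order is not settled here. The treatment text of the labels gives luteolin at 10 µM for 24 h on every library, Controls included, so the group names were used. How long the cells were stimulated for RNA-seq, and whether replicates came from separate mice or cultures, is not given in the sources used here. Adjusted p-values then measure only the spread between these libraries.

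Plasminogen activators are serine proteases that cut plasminogen, a liver zymogen carried in plasma, into plasmin, the protease that dissolves fibrin and activates matrix metalloproteases. Urokinase acts mainly at the cell surface, where Plaur, a receptor held in the membrane by a lipid anchor, binds it, while tissue plasminogen activator works mainly on fibrin. Serpins end the reaction by trapping the protease in a covalent complex. Serpine2, also called protease nexin, inhibits thrombin as well as both activators, and its complexes are taken up by receptors of the LDL receptor family. Mast cells are known as a source of fibrinolytic activity in tissue.

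The libraries held 9515004 to 24605689 counts, so that 3 counts, the limit a count of 0 allows, corresponded to 0.122 to 0.315 CPM, the counts scaled to a common library size, and these limits cover counting error only. The cells were checked against marker genes. All 9 mast cell markers, among them the stem cell factor receptor Kit and the IgE receptor subunit Fcer1a, passed the filter on low counts, and their summed level was 54800 to 82000 CPM. Fibroblast markers summed to 0.35 to 1.35 CPM and lymphocyte markers to 0.341 to 0.774 CPM, with Cd3e at 0 counts, and the 3 endothelial markers to 374 to 523 CPM, nearly all of it Pecam1, with Cdh5 at 0 counts and Kdr at 3 counts in all. Macrophage markers summed to 301 to 310 CPM in Control, 334 to 362 CPM in IgE+BSA and 340 to 366 CPM with luteolin. Megakaryocyte markers summed to 2000 to 2450, 1980 to 2070 and 2120 to 2210 CPM in these groups, with all luteolin libraries above all IgE+BSA libraries. Control replicate 1 stood apart from the other Controls. Over all genes tested (Euclidean distance of standardized log2 CPM to a group's mean), it lay at 133.1 from the luteolin group, 170.0 from IgE+BSA and 203.7 from the other Controls, so that it was nearest to a group other than its own. The part of a difference in culture or sample identity in the comparisons with Control was not tested. The sum of 7 neutrophil markers was 216 CPM in Control replicate 1 against 7.06 and 5.68 CPM in Control replicates 2 and 3, and 145 to 199 CPM in the 6 IgE+BSA and IgE+BSA+Luteolin libraries. All 7 passed the filter, and the granule genes Elane and Camp were at 0 counts in Control replicate 2 and Ltf in Control replicate 3. The basophil protease Mcpt8 was at 432 CPM in Control replicate 1, 21.8 and 18.7 CPM in Control replicates 2 and 3, and 292 to 368 CPM in the other 6 libraries. The second basophil marker, Prss34, did not follow this split, with 759, 650 and 610 CPM in Control, 513 to 558 CPM in IgE+BSA and 581 to 661 CPM with luteolin. The eosinophil granule gene Prg2 split the Controls as Mcpt8 did, at 31.5 CPM against 0.0967 and 0 CPM, and the sum of the 3 eosinophil markers was 51.1 CPM against 22.8 and 14.8 CPM. The mast cell sum also set Control replicate 1 apart, at 82000 CPM against 54800 and 55000 CPM, with the chymase gene Cma1 at 10100 against 4040 and 3550 CPM. The values of Plau, Plaur and Serpine2, and of the listed genes called against Control, are therefore also given without Control replicate 1. They are given as well with it as the only Control library, a setting chosen after the markers had been seen. Plat, which did not pass the filter, has no such values.

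Plau (ENSMUSG00000021822, chr14:20836660-20843385, plus strand, GRCm38) encodes urokinase and was the most abundant of the 4 genes per length. The Control libraries gave 149, 204 and 182 CPM. The IgE+BSA libraries gave 158, 150 and 159 CPM, and the IgE+BSA+Luteolin libraries gave 103, 95.4 and 91.7 CPM. All 3 luteolin libraries were below all 6 others, and Control replicate 1 was about level with the lowest IgE+BSA library, while the other Controls were above all of that group. Mean levels were 178 ± 27.2, 155 ± 4.94 and 96.7 ± 5.74 CPM (SD, n = 3) in Control, IgE+BSA and IgE+BSA+Luteolin. In this order of means, the ranges of Control and IgE+BSA overlapped, and that of the luteolin group overlapped neither. Plau ranked 1351st of the 11560 genes tested by mean CPM and rested on 25790 counts in all.

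**Figure D1:**
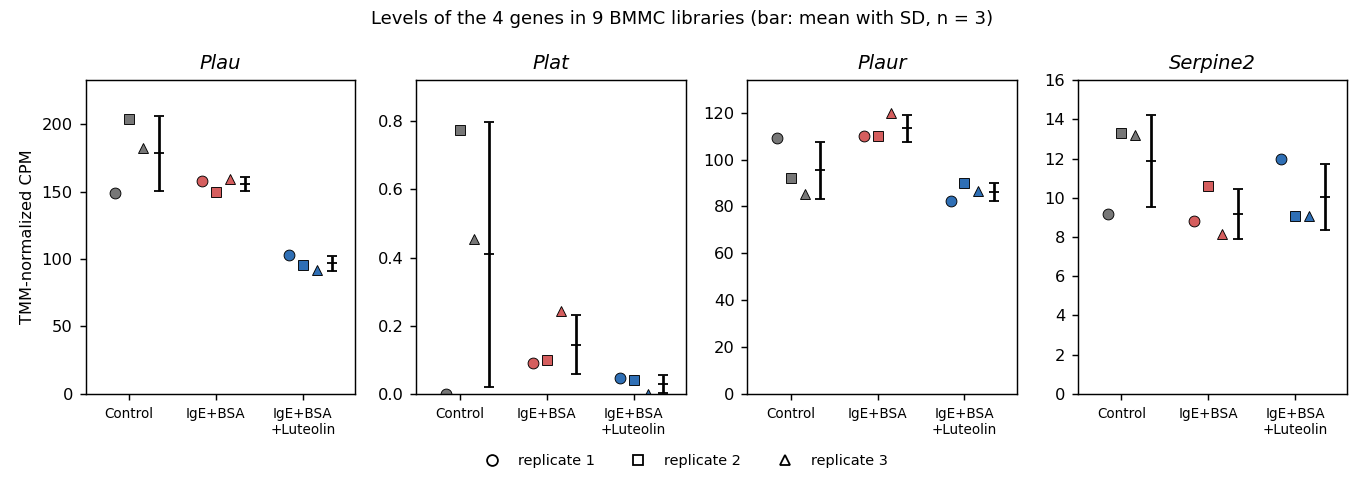
Level of each gene in TMM-normalized CPM (vertical axes, linear and starting at 0, with a scale of their own in each panel) by group, with circles, squares and triangles for replicates 1, 2 and 3 and a bar for the mean with its SD (n = 3). Plau in the luteolin group lay between 91.7 and 103 CPM, below every other library, and Plat did not pass 0.774 CPM in any library.

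Plat (ENSMUSG00000031538, chr8:22757727-22782844, plus strand) encodes tissue plasminogen activator and was close to the limit of detection. It had 0, 8 and 11 counts in the Control libraries, 2, 2 and 5 in IgE+BSA and 1, 1 and 0 in IgE+BSA+Luteolin, 30 counts in all. Control replicates 2 and 3 and IgE+BSA replicate 3 were the libraries above 3 counts. The highest level was 0.774 CPM in Control replicate 2. The 2 libraries at 0 counts, Control replicate 1 and IgE+BSA+Luteolin replicate 3, allow up to 0.147 and 0.149 CPM. The gene did not pass the filter of a median above 1 CPM, so the fits reported here leave it out. In fits of all 23387 genes with any count, its log2 fold changes were -2.06 ± 1.38 with luteolin against IgE+BSA, -1.30 ± 1.05 for IgE+BSA against Control and -3.38 ± 1.35 with luteolin against Control (SE), none past the threshold.

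Plau and Plat belong to the same protease family, and reads from one could in principle be counted for the other. The longest run shared by their protein-coding transcripts (GENCODE M21) was 14 bases. It lies in the coding part of both, at bases 463 to 476 of the 2342-base Plau transcript and 624 to 637 of the 2525-base Plat transcript. It is shown as the longest exact match. Such a run does not limit reads aligned with mismatches, and their part in the counts was not tested.
shared run: cacaattactgcag

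Plaur (ENSMUSG00000046223, chr7:24462484-24475968, plus strand), the urokinase receptor, was measured at 109, 92.1 and 85.2 CPM in the Control libraries. IgE+BSA libraries gave 110, 110 and 120 CPM, and IgE+BSA+Luteolin libraries 82.2, 90 and 86.6 CPM. All IgE+BSA libraries were above all others, although Control replicate 1 came within 1 CPM of the lowest of them, and Control replicate 3 lay inside the range of the luteolin group. Means were 95.5 ± 12.3, 114 ± 5.91 and 86.3 ± 3.95 CPM (SD, n = 3) in Control, IgE+BSA and IgE+BSA+Luteolin. The gene ranked 2066th and had 18155 counts.

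Serpine2 (ENSMUSG00000026249, chr1:79794197-79861180, minus strand), the inhibitor, was measured at 9.15, 13.3 and 13.2 CPM in the Control libraries. The IgE+BSA libraries gave 8.82, 10.6 and 8.14 CPM and the IgE+BSA+Luteolin libraries 12, 9.07 and 9.09 CPM. The 3 groups overlapped, with means of 11.9 ± 2.36, 9.17 ± 1.24 and 10.1 ± 1.70 CPM (SD, n = 3). Serpine2 ranked 8428th and had 1889 counts in all. No other annotated gene overlapped any of the 4 genes.

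Per kilobase of exon, the scale on which genes can be set side by side, the order was the same in every group. In IgE+BSA it was 65.7 ± 2.08 CPM per kb for Plau, 43.4 ± 2.26 for Plaur, 1.11 ± 0.15 for Serpine2 and 0.0232 ± 0.0138 for Plat (SD, n = 3). With luteolin, Plau stood at 40.8 ± 2.43 and Plaur at 33.0 ± 1.51 CPM per kb, so ligand and receptor were closer in level than in the other groups. Within each library and without any scaling, the ratio of Plau to Plaur counts was 1.37, 2.21 and 2.14 in Control, 1.43, 1.36 and 1.32 in IgE+BSA and 1.25, 1.06 and 1.06 in IgE+BSA+Luteolin. The luteolin libraries had the lowest ratios and did not overlap the others, and Control replicate 1 lay among the IgE+BSA libraries rather than with the other Controls. Serpine2 counts per Plau count were 0.0612, 0.0651 and 0.0726 in Control, 0.0559, 0.0705 and 0.0513 in IgE+BSA and 0.117, 0.0951 and 0.0992 in IgE+BSA+Luteolin. The inhibitor thus made up a larger part relative to urokinase in all 3 luteolin libraries than in any other library. These ratios come from values that the choice of genes already used and are given as a description.

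**Figure D2:**
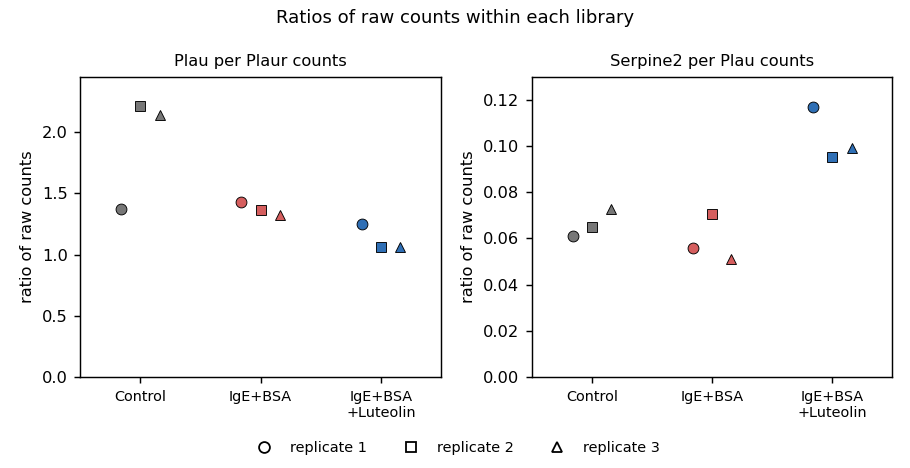
Ratios of raw counts within each library (vertical axes, linear and starting at 0) by group, with the replicates by symbol. Serpine2 per Plau ran from 0.0951 to 0.117 in the luteolin group and did not exceed 0.0726 elsewhere.

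The comparison of IgE+BSA+Luteolin with IgE+BSA asks what luteolin changed in activated cells. Plau was 1.6-fold lower with luteolin, with a log2 fold change of -0.68 ± 0.06 (SE, 3 against 3 libraries). Plaur was 1.31-fold lower, at -0.39 ± 0.06, and the libraries of the 2 groups did not overlap for either gene. Serpine2 stood at 0.14 ± 0.15 with overlapping libraries. In this comparison 40.0% of all genes tested passed edgeR's quasi-likelihood test at an adjusted p of 0.05, 21.9% lower and 18.1% higher, and the libraries of 50.3% did not overlap, 26.2% with luteolin lower. Of the 3 genes tested, 2 passed, both lower. The 4 genes were picked with these differences known, so the count is no test of the group. The median log2 fold change of all genes was 0.02. Fewer cells of a type and less RNA per cell cannot be told apart in such bulk libraries. The summed mast cell markers were 57800 to 64600 CPM in IgE+BSA and 69100 to 80100 CPM with luteolin, and the neutrophil markers 145 to 159 and 168 to 199 CPM. Both sums were higher in the luteolin libraries, but the mast cell markers did not move together. By edgeR's quasi-likelihood test Fcer1a, Ms4a2, Cpa3, Tpsb2 and Cma1 were higher by 0.30 to 0.42 on the log2 scale. The histidine decarboxylase gene Hdc (-1.16) and the tryptase gene Tpsab1 (-1.32), whose counts are uncertain beside its close relative Tpsb2, were lower, and Kit (-0.10) and Gata2 (-0.05) did not pass. Of the 7 neutrophil markers, S100a8 (0.43) and S100a9 (0.32) passed, as did both basophil markers, Mcpt8 (0.21) and Prss34 (0.24), whose sum was 805 to 888 CPM in IgE+BSA and 909 to 1020 CPM with luteolin. The part of these cells in the differences of Plau and Plaur was not tested. Under all 13 alternatives run, the log2 fold changes stayed between -0.74 and -0.57 for Plau and between -0.43 and -0.28 for Plaur.

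**Figure D3:**
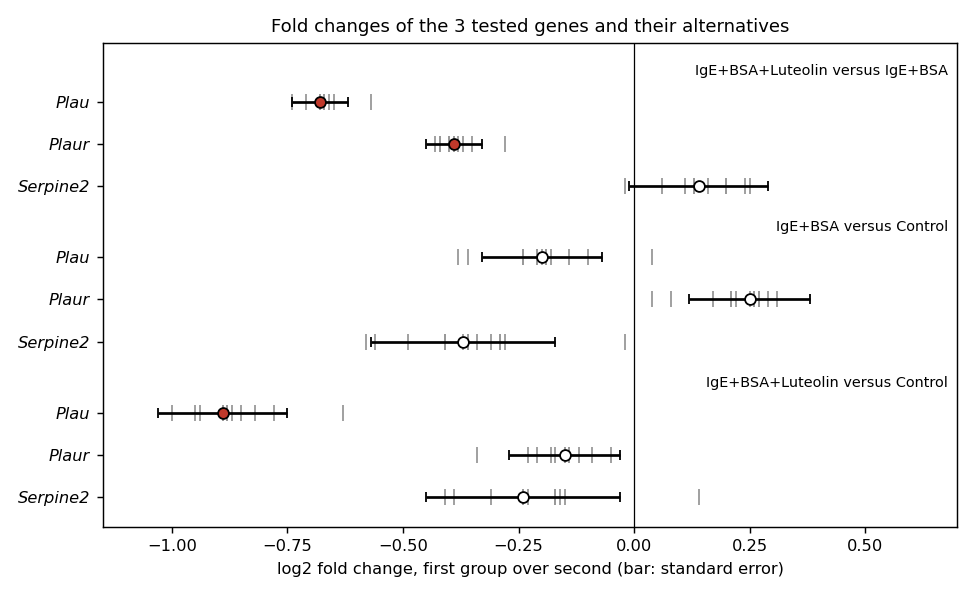
Log2 fold change with its standard error (horizontal axis) for the 3 genes tested in each of the 3 comparisons, from edgeR fits of 3 against 3 libraries, filled where past the threshold, with a grey tick for each alternative. Plau with luteolin lay at -0.68 against IgE+BSA and -0.89 against Control, while the changes of Serpine2 were between -0.37 and 0.14.

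The comparison of IgE+BSA with Control asks what activation changed. Plaur stood at a log2 fold change of 0.25 ± 0.13, Plau at -0.20 ± 0.13 and Serpine2 at -0.37 ± 0.20 (SE, 3 against 3 libraries). None of the 3 genes tested passed the test, which 3.27% of all genes did, 1.02% lower and 2.25% higher. The Plaur libraries did not overlap between the groups, as for 28.7% of genes, 16.7% in that direction, but the gap to Control replicate 1 was small. The SD of Plau among the Controls was 27.2 CPM against 4.94 CPM in IgE+BSA. Without Control replicate 1 the log2 fold changes were -0.36 for Plau, 0.31 for Plaur and -0.58 for Serpine2, and all 3 were past the threshold, as were 45% of all genes in that fit. With Control replicate 1 as the only Control library, they were 0.04, 0.04 and -0.02, and none was, against 42.3% of all genes. With library size alone as scaling, which moves the median of all genes to -0.15, the log2 fold changes were -0.38 for Plau, 0.08 for Plaur and -0.56 for Serpine2, none past the threshold. The neutrophil markers, Mcpt8, Prg2 and the mast cell sum split the same Controls, and the part of these cells in the levels of the 4 genes was not tested.

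Between IgE+BSA+Luteolin and Control, Plau was 1.85-fold lower, with a log2 fold change of -0.89 ± 0.14 and no overlap. Plaur stood at -0.15 ± 0.12 and Serpine2 at -0.24 ± 0.21, both with overlapping libraries. In this comparison 3.04% of all genes passed, 2.75% lower and 0.285% higher, and 28.5% were without overlap, 14.9% in the lower direction. Of the 3 genes tested, Plau passed. Its change was -1.0 without Control replicate 1 and -0.63 with that library as the only Control, past the threshold in both, but the call was lost when any 1 of the other 5 libraries was left out, at log2 fold changes of -0.94 to -0.78. Serpine2 was at -0.41 and past the threshold without Control replicate 1, and at 0.14 with that library as the only Control. Plaur was at -0.05 without Control replicate 1 and at -0.34, past the threshold, with it as the only Control. The threshold was passed by 60% of all genes in the fit without Control replicate 1 and by 21.2% with it as the only Control. The 3 comparisons share their groups with one another, so their values are not independent.

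**Figure D4:**
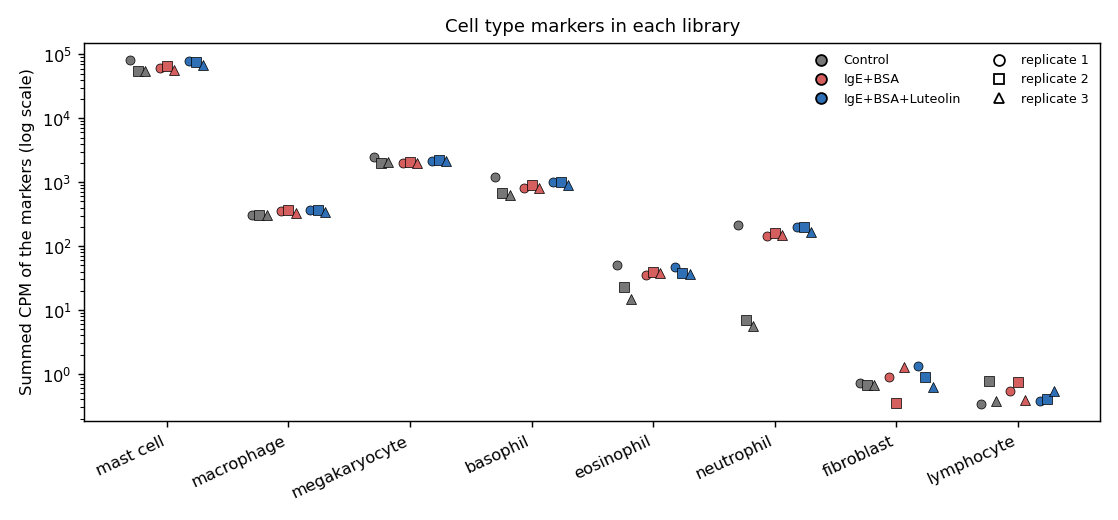
Summed level of cell type markers in CPM (vertical axis, log scale) in the 9 libraries, with groups by colour and replicates by symbol. Control replicates 2 and 3 had 7.06 and 5.68 CPM of neutrophil markers against 145 to 216 CPM in the other 7 libraries, and mast cell markers ran from 54800 CPM in Control replicate 2 to 82000 CPM in Control replicate 1.

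The table of promoter sequences held 2 of the 4 genes, Plaur and Serpine2. They are printed because the levels of these genes ran in opposite directions over the 9 libraries (Pearson's r of log2 CPM -0.62, a description over libraries that share groups). Each sequence covers bases 250 to 51 before the RefSeq start site on the gene's strand (GRCm38.p6), chr7:24462233-24462432 for Plaur and chr1:79858716-79858915 for Serpine2, with the AP-1 motif TGANTCA in capitals. The Plaur window ends before the gene span given above. That of Serpine2 lies inside its gene span, which on the minus strand begins at 79861180, so the windows are not alike in position.
Plaur: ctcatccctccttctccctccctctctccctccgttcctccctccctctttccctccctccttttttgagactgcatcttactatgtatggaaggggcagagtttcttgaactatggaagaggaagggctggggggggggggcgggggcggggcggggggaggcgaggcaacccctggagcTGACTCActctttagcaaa
Serpine2: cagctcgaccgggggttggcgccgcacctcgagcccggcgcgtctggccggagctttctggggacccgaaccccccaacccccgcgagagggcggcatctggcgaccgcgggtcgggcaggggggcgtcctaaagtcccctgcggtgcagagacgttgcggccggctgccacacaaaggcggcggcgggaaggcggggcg

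The Plaur window held the AP-1 letters TGACTCA, whose first base lies 69 bases before the start site, and an EGR match (GCGNGGGCG) at 109 bases. Both strands were searched. The AP-1 letters were found in 5.57% and the EGR letters in 3.04% of the 32851 promoter windows of the same length. The Serpine2 window held neither, and had a match to the NF-kB pattern at 130 bases, which 37.2% of windows hold. Neither window held the CRE letters TGACGTCA, present in 0.828% of windows. The guanine and cytosine content was 60.0% for Plaur and 75.5% for Serpine2, against a median of 51.5% over all windows. These matches describe letters and no binding was measured.

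Other genes of the pathway were taken from 5 lists and the serpin family. Plasminogen (Plg), the substrate of both activators, had 0 counts in all 9 libraries. Of 5 genes for plasminogen and its receptors, 4 were tested and none passed edgeR's quasi-likelihood test in any of the 3 comparisons. It was passed by 40.0% of all genes with luteolin against IgE+BSA, 3.27% between IgE+BSA and Control and 3.04% between IgE+BSA+Luteolin and Control. In the same order, DESeq2 called 0, 2 and 1 of the 4, and 38.3%, 10.6% and 11.9% of all genes. With luteolin against IgE+BSA, 2 passed with library size alone as scaling, 1 without the filter on low counts and 2 with a replicate block. These settings called 48.6%, 20.8% and 48.3% of all genes. Without Control replicate 1 all 4 passed in both comparisons with Control, against 45% of all genes for IgE+BSA and 60% for IgE+BSA+Luteolin. Counts over 4 genes are no result about the receptors. Plgrkt, a membrane receptor that holds plasminogen at the cell surface, had mean levels of 118 ± 5.07 CPM with luteolin and 115 ± 15.7 CPM in IgE+BSA (SD, n = 3). Anxa2 and S100a10, which form a complex that binds tissue plasminogen activator and plasminogen, were at 107 and 109 CPM and at 112 and 102 CPM in these groups. S100a10 was past the threshold at 0.25 with library size alone as scaling, at 0.20 without IgE+BSA+Luteolin replicate 3 and at 0.14 with a replicate block. Anxa2 again set Control replicate 1 apart, with 116 CPM against 49.7 and 53.1 CPM in the other Controls and 101 to 117 CPM in all other libraries.

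Over the 5 lists and the serpins of clades other than E, 106 genes were in the table, 32 had 0 counts in every library and 40 were tested. Between IgE+BSA+Luteolin and IgE+BSA, 8 of the 40 (20%) were lower and 5 (12.5%) higher by edgeR's quasi-likelihood test, against 21.9% and 18.1% of all genes tested. Their median log2 fold change was 0.00, against 0.02 for all genes. These shares are near the background and are no result about the pathway. The 9 serpins tested had a median of -0.32, with 5 lower and 2 higher.

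**Figure D5:**
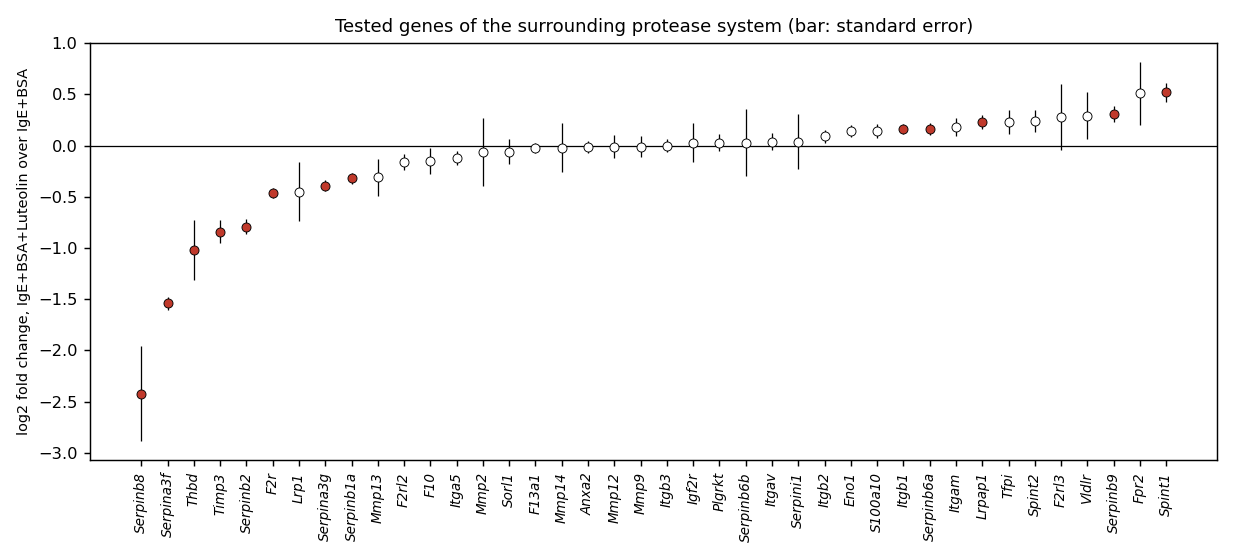
Log2 fold change with its standard error (vertical axis) between IgE+BSA+Luteolin and IgE+BSA for the 40 tested genes of the pathway lists and the serpin family, ordered by value and filled where past the threshold. Values ran from -2.42 for Serpinb8 to 0.52 for Spint1.

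Among the inhibitors of plasminogen activators, plasmin and surface proteases, 4 of 9 genes were tested, and 1 was lower and 1 higher with luteolin. Serpinb2, a second inhibitor of urokinase, was at 64.3, 60.9 and 64.6 CPM in IgE+BSA and at 36.7, 38.4 and 34.3 CPM in IgE+BSA+Luteolin. All luteolin libraries were below all IgE+BSA libraries, and the log2 fold change was -0.79 ± 0.07 (SE, edgeR, adjusted p = 1.23e-07). Its Control libraries were at 32.9, 64.6 and 64.4 CPM, so that replicate 1 lay just below the luteolin range and the other Controls with IgE+BSA. Spint1, a membrane-bound Kunitz inhibitor of surface serine proteases, was at 46.1, 53.2 and 41.5 CPM in IgE+BSA and at 70.4, 73.1 and 58.5 CPM with luteolin. It was higher by 0.52 ± 0.09 on the log2 scale (edgeR, adjusted p = 0.000366). The plasmin inhibitor Serpinf2 had 3 counts in all libraries together.

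Spint1 was also 1 of the 2 listed genes that passed between IgE+BSA and Control (2 of 40, against 3.27% of all genes), with a mean of 46.9 against 78.5 CPM and a log2 fold change of -0.75 ± 0.14 (edgeR, adjusted p = 0.0356). In this gene the Control libraries, at 81.6, 70.0 and 83.9 CPM, lay close together, replicate 1 included. The other was Serpina3f, a mouse relative of antichymotrypsin, with 207, 202 and 198 CPM in IgE+BSA and 95.2, 133 and 116 CPM in Control (0.82 ± 0.13, edgeR, adjusted p = 0.0236). Its luteolin libraries were at 68.6, 71.4 and 68.6 CPM, below every library of both other groups. The log2 fold change with luteolin was -1.54 ± 0.06 against IgE+BSA (edgeR, adjusted p = 6.06e-13) and -0.73 ± 0.14 against Control (edgeR, adjusted p = 0.0434). Serpina3f was the only listed gene to pass in the comparison of IgE+BSA+Luteolin with Control. It belongs to a cluster of closely related serpins, so its counts are uncertain. The call of Spint1 was lost when any 1 of the 5 libraries other than Control replicate 1 was left out (-0.85 to -0.66), and so was that of Serpina3f with luteolin against Control (-0.75 to -0.60). Serpina3f lost its call between IgE+BSA and Control without Control replicate 3 or without any 1 IgE+BSA library (0.80 to 0.84), and with library size alone as scaling (0.63). Without Control replicate 1 and with it as the only Control, Spint1 stood at -0.77 and -0.82 between IgE+BSA and Control. Serpina3f stood at 0.66 and 1.07 in that comparison and at -0.85 and -0.45 with luteolin against Control, and all these values were past the threshold. Without Control replicate 1, 23 of the 40 listed genes passed between IgE+BSA and Control, against 45% of all genes, and 27 between IgE+BSA+Luteolin and Control, against 60%.

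Among the other serpins, Serpinb8, an inhibitor of furin-like proteases, was at 2.80, 1.75 and 1.71 CPM in IgE+BSA and at 0.0933, 0.607 and 0.435 CPM with luteolin. The groups did not overlap (-2.42 ± 0.46, edgeR, adjusted p = 0.000583), but the call was lost at -2.42 ± 0.73 with all 9 libraries in the fit, and the luteolin libraries held 2, 15 and 9 counts. Control replicate 1 was at 0.633 CPM, near the luteolin group, and Control replicates 2 and 3 at 4.06 and 3.87 CPM. Serpinb9, the inhibitor of granzyme B, rose from 23.9 to 29.6 CPM (0.31 ± 0.08, edgeR, adjusted p = 0.00763), a call lost with all 9 libraries in the fit (0.31 ± 0.11). Serpinb6a, an inhibitor of cathepsin G, rose from 145 to 162 CPM (0.16 ± 0.06, edgeR, adjusted p = 0.0303), a call lost when either of replicates 1 and 2 was left out in either group (0.13 to 0.18) and with all 9 libraries in the fit. The lower genes Serpina3g and Serpinb1a, an inhibitor of neutrophil elastase, stood at -0.39 and -0.32 and were named after their values had been seen.

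Of the partners and clearance receptors of the urokinase receptor, 12 of 15 were tested and 2 were higher with luteolin. Itgb1, the integrin beta chain that associates with Plaur, was at 495 ± 3.7 against 444 ± 14.7 CPM in IgE+BSA (0.16 ± 0.05, edgeR, adjusted p = 0.0211). Lrpap1, the chaperone of LDL receptor family members, was at 164 ± 13.8 against 140 ± 8.85 CPM (0.23 ± 0.07, edgeR, adjusted p = 0.0124). The call of Itgb1 was lost without IgE+BSA replicate 3 or IgE+BSA+Luteolin replicate 1 or 2 (0.13 to 0.16), and that of Lrpap1 without IgE+BSA replicate 1 or IgE+BSA+Luteolin replicate 2 (0.20 and 0.16), and both were lost with all 9 libraries in the fit. Lrp1, which clears complexes of urokinase and its inhibitors, was low in all groups, at 2.41 ± 0.302 and 3.30 ± 1.31 CPM, and did not pass. The collagen receptor Mrc2, which binds Plaur, had 15 counts in all. The integrin partners Itgb2 and Itgb3 stood at 0.09 and 0.00 and did not pass either.

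Of 15 coagulation genes, 7 were tested and 2 were lower with luteolin. Thbd, the thrombin cofactor thrombomodulin, was at 0.979, 1.90 and 2.18 CPM with luteolin and 3.53, 3.20 and 3.61 CPM in IgE+BSA (-1.02 ± 0.29, edgeR, adjusted p = 0.0109), and stood at -0.76, not past the threshold, without IgE+BSA+Luteolin replicate 1, and at -1.03 ± 0.33, not past it, with all 9 libraries in the fit. F2r, a thrombin receptor named after its values had been seen, was at 965 and 1330 CPM (-0.46 ± 0.05, edgeR, adjusted p = 2.11e-06). Of 9 genes for plasmin-activated metalloproteases and their inhibitors, 6 were tested, and the inhibitor Timp3 was lower while none of the 5 metalloproteases tested passed. Timp3, an inhibitor that is bound to matrix, was at 16.7, 14.7 and 14.7 CPM with luteolin and 29.8, 23.6 and 29.2 CPM in IgE+BSA, without overlap (-0.84 ± 0.11, edgeR, adjusted p = 1e-05), a call lost at -0.84 ± 0.35 with all 9 libraries in the fit. Its Control libraries were at 15.5, 48.4 and 49.2 CPM, with replicate 1 again apart. The proteases Mmp9 and Mmp12 stood at a log2 fold change of -0.01 each and did not pass.

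The genes whose levels ran most like those of the 4 genes over the 9 libraries were named by Pearson's r of log2 CPM, as a description, since these libraries share groups and the difference among Controls. For Plau they were Tsc22d3 (r = 0.996), Cd300lb (0.993) and Cstf2t (0.991). Tsc22d3, known as a gene induced by glucocorticoids, was at 50.1, 93.7 and 75.8 CPM in Control, 57.6, 54.1 and 51.1 CPM in IgE+BSA and 20.5, 18.7 and 18.1 CPM with luteolin. As for Plau, the luteolin libraries were the lowest and Control replicate 1 was the lowest Control. For Plaur they included Anks1 (0.965) and the AP-1 subunit gene Fosl1 (0.956). Anks1 was at 32.3, 27 and 27 CPM in Control, 33.7, 34.8 and 34.5 CPM in IgE+BSA and 25.3, 26.3 and 27 CPM with luteolin. Fosl1 was at 3.55, 2.51 and 0.618 CPM in Control, 8.09, 6.20 and 8.49 CPM in IgE+BSA and 0.373, 0.729 and 0.774 CPM with luteolin. In both, as in Plaur, the IgE+BSA libraries were above all others. For Serpine2 they were Ccdc92b (0.967), Cerkl (0.962) and the leukotriene B4 receptor Ltb4r2 (0.961). Ccdc92b was at 16.9 and 18.7 CPM in Control replicates 2 and 3 and between 7.95 and 12.3 CPM elsewhere. Among the 3 genes tested r was 0.41 for Plau and Plaur, 0.37 for Plau and Serpine2 and -0.62 for Plaur and Serpine2.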

How the data were processed

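The authors prepared stranded libraries from poly(A) RNA, sequenced them on an Illumina NovaSeq instrument, cleaned reads with HTStream and aligned them with STAR 2.7.0f to the mouse genome (mm10; the gene annotation is not given in the sources used here). They deposited raw counts per gene for all 9 libraries; per the file headers the counts come from HTSeq. Of 47643 identifiers, 47224 were matched to a symbol in GENCODE M21. Library totals were 9515004 to 24605689 counts.

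Counts were analysed with edgeR 4.0.16 in R 4.3.3. Genes with a median above 1 CPM over the 9 libraries were kept (11560), and TMM factors were used. Each of 3 comparisons was fitted on its 6 libraries with the quasi-likelihood test, two-sided, with Benjamini-Hochberg adjustment over all genes tested and a threshold of 0.05. The fit was also run on simulated counts. They held no library set apart as Control replicate 1 is, so they are no check of the comparisons with Control. CPM are TMM-normalized, and CPM per kb use the union of exons. DESeq2 1.42.0, limma 3.58.1, other scalings, no filter on low counts, all 9 libraries in one fit, a replicate block and leaving out each library were alternatives. Replicate libraries differed beyond sampling noise, so each was counted as 1 sample. The main fits held no replicate block, since not every pair of same-numbered libraries correlated above 0.1. With so few libraries this cut cannot show that they were unpaired.

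The genes, lists, markers and motifs were chosen with earlier results of these data known, so folds of the 4 genes are given without p-values. Beside them and their pathway lists, the named genes were up to 5 lower and 5 higher listed genes with the largest log2 fold change past the threshold in each comparison, Plg, Plgrkt, Anxa2, S100a10, Serpinb2, Serpinf2, Lrp1 and Mrc2, and the 3 genes most correlated with each gene tested. Serpins of clade E other than Serpine2, and 1 of the 3 genes most correlated with Plaur, are not reported here. Positions are from GENCODE M21 and promoter sequences from RefSeq (GRCm38.p6). Proteins and the promoters of Plau and Plat were not used here.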

Additional observations from a re-analysis of the deposited data

How the results depend on the processing

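Between IgE+BSA+Luteolin and IgE+BSA, Plau and Plaur kept direction and call under all 13 alternatives. Serpine2 passed under none, with -0.02 without IgE+BSA+Luteolin replicate 1 and -0.02 to 0.24 over all single libraries left out. Anxa2 turned to 0.10 with library size alone as scaling, which moves the median of all genes to 0.13, to 0.01 without the filter, and to 0.04 and 0.01 without IgE+BSA replicate 2 and IgE+BSA+Luteolin replicate 3 (-0.06 to 0.04 over single libraries left out). Plgrkt turned to -0.05 without IgE+BSA replicate 2. With all 9 libraries in the fit, Serpinb8 (-2.42), Thbd (-1.03), Timp3 (-0.84), Serpinb9 (0.31), Lrpap1 (0.23), Itgb1 (0.16) and Serpinb6a (0.16) were no longer past the threshold at nearly the same folds, calls over all genes went from 4624 to 1093 (83.9% lower, against 54.6%) and those over the lists from 13 to 6. With library size alone, 31.4% of 5623 calls were lower. Leaving out 1 library gave 3242 to 5082 calls.

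Between IgE+BSA and Control, 378 calls became 1227 with DESeq2, 604 without the filter, 1105 with all 9 libraries, 4892 with Control replicate 1 as the only Control, and 90 to 5207 with 1 library left out. With library size alone, 63.0% of 468 calls were lower, against 31.2%, and the median of all genes was -0.15. Calls over the lists went from 2 to 7 with DESeq2, 7 with all 9 libraries, 1 with library size alone, 13 with Control replicate 1 as the only Control, and 0 to 23 with 1 library left out. Plau ran from -0.36 to -0.10, Plaur from 0.17 to 0.31 and Serpine2 from -0.58 to -0.28 with 1 library left out, and the ends -0.36, 0.31 and -0.58, past the threshold, are those without Control replicate 1. Plau was at 0.04 with that library as the only Control.

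Between IgE+BSA+Luteolin and Control, 351 calls became 1379 with DESeq2, 793 without the filter, 1251 with all 9 libraries, 2447 with Control replicate 1 as the only Control, and 2 to 6931 with 1 library left out. The lowest, 2, is without IgE+BSA+Luteolin replicate 2, and the highest without Control replicate 1. Calls over the lists went from 1 to 6 with DESeq2, 3 without the filter, 6 with all 9 libraries, 5 with Control replicate 1 as the only Control, and 0 to 27 with 1 library left out. With 1 library left out Plau ran from -1.0 to -0.78, with 5 of the 6 values (-0.94 to -0.78) not past the threshold, and Serpine2 from -0.41, past it without Control replicate 1, to -0.15. With Control replicate 1 as the only Control, Plaur was at -0.34, past the threshold, and Serpine2 at 0.14.

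With a replicate block, calls were 5582, 144 and 212 in the 3 comparisons, those over the lists between IgE+BSA and Control were 0, and Plau between IgE+BSA+Luteolin and Control was at -0.88 and no longer past the threshold. Of the plasminogen receptors between IgE+BSA+Luteolin and IgE+BSA, 2 were past it, S100a10 at 0.14 among them, and the calls of Spint1 (-0.75) and Serpina3f (0.83 and -0.72) against Control were lost. Same-numbered libraries deviated together with r of -0.024, 0.175 and 0.283 between IgE+BSA+Luteolin and IgE+BSA, -0.042, -0.255 and 0.24 between IgE+BSA and Control, and 0.174, -0.124 and 0.307 between IgE+BSA+Luteolin and Control. The block was therefore kept as an alternative only, and these values cannot show that the libraries were unpaired. Of 6 libraries, 4, 2 and 3 correlated best with their own number. The cause of these differences between settings was not tested, and the alternative with a single Control assumes that it varies like the stimulated libraries.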
